A study of Mus musculus with 6 samples.

Results

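Genes of chromatin remodelling and histone methylation were followed through 6 blood progenitor populations of mouse bone marrow, in cells heterozygous for Mof (genotype Mof -/+ in the labels) and in wild-type cells. The members are the genes whose symbol begins with Smarc, Arid1 to Arid5, Chd, Kmt2, Kdm, Setd, Ezh or Brd followed by its number or letter, which gave 71 of the 23538 genes in the expression tables. Mof is the older name of Kat8, a histone acetyltransferase that acetylates histone H4 on lysine 16. Stem cells (HSC) and 3 kinds of multipotent progenitor (MPP2, MPP3 and MPP4) were studied beside 2 lineage-directed kinds, the common myeloid progenitor (CMP) and the progenitor of megakaryocytes and red cells (MEP), each sorted from heterozygous and from wild-type marrow. HSC and the MPPs were sorted as lineage-negative, Sca-1-positive, cKit-positive cells (LSK). Within LSK, HSC carried CD150 but not CD34, Flt3 or CD48, MPP2 carried CD34, CD48 and CD150 without Flt3, MPP3 differed from MPP2 in lacking CD150, and MPP4 carried Flt3 and CD48 without CD150. CMP and MEP lacked Sca-1, lineage markers and IL7r and carried cKit, with CMP positive for CD34 and low for CD16/32 and MEP negative for both. The 12 groups held 3 libraries each, made by CEL-Seq2 from sorts of 15 cells, a method that tags the 3′ end of each messenger RNA with a molecular identifier. The labels used here give no age, strain or sex and do not say which libraries came from which animal, so a p-value here measures the scatter of libraries alone, which may be technical.

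SWI/SNF, ISWI and CHD remodellers are ATP-driven complexes that slide, eject or exchange nucleosomes, and many ARID and bromodomain proteins are subunits or readers that bring such complexes to DNA or to acetylated histones. SETD and EZH enzymes place methyl groups on histone lysines, and KDM enzymes remove them. In blood formation these regulators are known for their part in stem cell maintenance, in lineage choice and in leukaemia.

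Libraries held between 1577 and 123765 counts, with a median of 41227. Heterozygous libraries had a median of 60194 counts (1577 to 123765) and wild-type libraries a median of 32782.5 (2764 to 102375). CMP and MEP libraries had a median of 76080 counts (34996 to 123765), and HSC and MPP libraries a median of 32831.5 (1577 to 118600). The 6 libraries under 13000 counts were all 3 of wild-type MPP2, libraries 1 and 2 of wild-type MPP3 and library 2 of heterozygous HSC, and results are also given without them. The libraries were submitted as 6 samples, each of 1 genotype and with an Illumina index of its own, so genotype and submitted sample cannot be told apart. CMP and MEP lie in other submitted samples than HSC and the MPPs, so these cannot be told apart in that comparison either. Kat8 itself gave 11 counts over the 18 heterozygous libraries and 12 over the 18 wild-type libraries, too few to check the genotype labels. Xist gave 2 counts in all and the Y-linked Ddx3y 302 counts in 34 of 36 libraries.

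The 71 members together took 14441 counts. Their share of a library's counts was 0.380%, 0.797% and 1.02% (lowest, median and highest) in heterozygous libraries, against 0.644%, 0.823% and 1.12% in wild-type libraries. The same share was 0.644%, 0.779% and 0.975% in CMP and MEP libraries, against 0.380%, 0.849% and 1.12% in HSC and MPP libraries. The ranges overlapped in both comparisons, and the lowest value belonged to heterozygous HSC library 2, where the share rests on 6 counts. A share in a bulk sort does not tell fewer cells with the transcript from less RNA per cell.

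**Figure D1:**
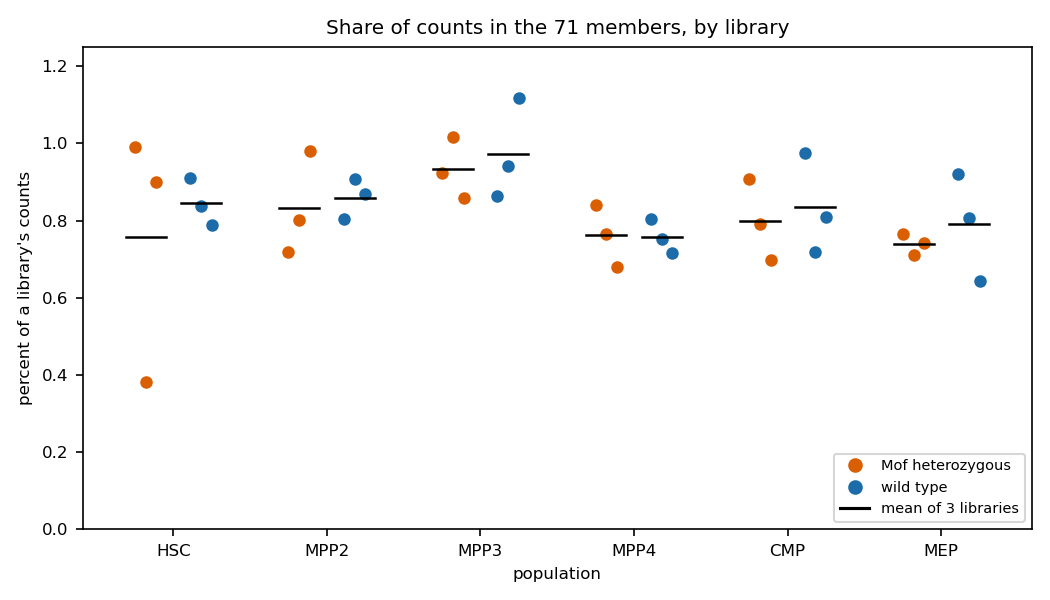
Percent of each library's counts that fell in the 71 members (vertical axis), by population (horizontal axis), with heterozygous libraries left of wild-type ones and a line at the mean of 3 libraries. Libraries lay between 0.380% and 1.12%, and genotypes overlapped in every population.

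Of the 71 members, 57 reached a total of 36 counts over the 36 libraries and were tested. Chd5, Kdm4d and Smarcd3 were at 0 in every library, which over all libraries allows up to 3 counts each, and 11 further members had between 1 and 35 counts. Chd7 with 35 counts lay just outside this limit and Setd6 with 36 just inside it. The 20 most counted members held 62.5% of all member counts, and Chd4 and Arid1a were found in all 36 libraries. No row of the tables carries a Kmt2 symbol. The tables name those genes by older symbols, such as Mll1 for Kmt2a, which fall outside the rule and are described at the end.

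SWI/SNF subunits were the most heavily counted family, with 4077 counts in 14 members, or 28.2% of the member counts. Levels are given from here on as CPM, the level scaled to the same total for every library. CEL-Seq2 tags the 3′ end, and these values are not scaled to transcript length. A single count is 634.1 CPM in heterozygous HSC library 2 and 361.8 CPM in wild-type MPP3 library 2. The ends of the ranges below can therefore rest on few counts. Arid1a, the DNA-binding subunit that defines one form of the complex, stood at 268.3, 392.7 and 634.1 CPM (lowest, median and highest) in heterozygous libraries, against 88.5, 348.7 and 657.2 CPM in wild-type libraries. Its paralogue Arid1b stood at 133.1, 295.5 and 634.1 CPM in heterozygous libraries, against 0, 214.3 and 547.6 CPM in wild-type ones. The core scaffold subunit Smarcc1 had 0, 281.4 and 463.7 CPM in heterozygous libraries, against 0, 337.7 and 1085 CPM in wild-type ones. All 3 ranges overlapped across most of their length. The 634.1 CPM of Arid1a and of Arid1b is 1 count each in heterozygous HSC library 2. The 1085 CPM of Smarcc1 is 3 counts in wild-type MPP3 library 2. The remaining heavily counted subunits were Smarca4, one of the 2 ATPases, with 548 counts, Arid2 of the polybromo form with 301, Smarce1 with 299 and Smarcc2 with 298. Arid2 had 0, 169.8 and 255.3 CPM in heterozygous libraries, against 0, 112.4 and 251.3 CPM in wild-type ones. Smarce1 had 0, 156.6 and 250.6 CPM in heterozygous libraries, against 0, 173.9 and 723.6 CPM in wild-type ones. The genotypes overlapped for both genes, and the 723.6 CPM of Smarce1 is 2 counts in wild-type MPP3 library 2. Smarcc2, a paralogue of Smarcc1, had 0, 172.4 and 279.6 CPM in heterozygous libraries, against 0, 157.2 and 284.9 CPM in wild-type ones, which also overlapped.

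CHD remodellers followed with 2581 counts in 10 members. Chd4, the ATPase of the NuRD complex, was the most counted member of all with 954 counts. It had 416.2, 568.5 and 838.5 CPM in heterozygous libraries, against 110.9, 532.7 and 911.8 CPM in wild-type libraries. Its paralogue Chd3 had 90.8, 190.6 and 634.1 CPM in heterozygous libraries, against 0, 235.3 and 723.6 CPM in wild-type ones. Chd8, a remodeller known for its interaction with beta-catenin, had 0, 169.8 and 327.1 CPM in heterozygous libraries, against 0, 131 and 361.8 CPM in wild-type ones. The genotypes overlapped for all 3 genes. The highest Chd3 values are 1 count in heterozygous HSC library 2 and 2 counts in wild-type MPP3 library 2. The 361.8 CPM of Chd8 is 1 count in the latter library.

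Smarca5, the ISWI ATPase, had 428 counts, and Smarca5-ps, a processed copy that the rule also selects, had 221. Transcripts of the pair are 98.1% identical over 3116 aligned bases, and 55.7% of the 30-base windows of Smarca5-ps occur in Smarca5. In the 25 libraries with at least 10 counts of the pair, Smarca5-ps took between 6.67% and 50% of them, with a median of 34.6%. How the authors' counting divides reads between them is not given in the sources used here, so both values are uncertain. Smarca5 had 0, 229.7 and 366.3 CPM in heterozygous libraries, against 34.4, 263.4 and 410.7 CPM in wild-type ones.

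Bromodomain readers outside SWI/SNF held 2224 counts in 5 members. The BET proteins Brd2 and Brd3, which bind acetylated histones, had 666 and 629 counts. Brd2 stood at 0, 357.7 and 663 CPM in heterozygous libraries, against 0, 429.7 and 810.4 CPM in wild-type libraries. Brd3 stood at 0, 341.1 and 530.7 CPM in heterozygous libraries, against 0, 347.8 and 671.8 CPM in wild-type libraries. Both ranges overlapped, and 4 of the 18 heterozygous libraries lay above the wild-type median for Brd2 and 9 of 18 for Brd3.

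Demethylases were many and sparsely counted, with 1830 counts in 17 members. Kdm5a, which removes methyl groups from histone H3 lysine 4, had 0, 200.4 and 337.8 CPM in heterozygous libraries, against 0, 180.3 and 405.2 CPM in wild-type ones. Kdm2a, a demethylase of H3 lysine 36 that binds unmethylated CpG sites, had 0, 133.5 and 321.3 CPM in heterozygous libraries, against 78.7, 210.9 and 361.8 CPM in wild-type ones. Only 5 of 18 heterozygous libraries lay above the wild-type median of Kdm2a. The Y-linked Kdm5d gave 47 counts, found in 11 of 18 heterozygous and 7 of 18 wild-type libraries.

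Methyltransferases of the SETD and EZH families held 1592 and 429 counts. Ezh2, the catalytic subunit of Polycomb repressive complex 2, accounted for 369 counts and its paralogue Ezh1 for 60. Ezh2 had 0, 170.5 and 472.2 CPM in heterozygous libraries, against 0, 209.3 and 387.2 CPM in wild-type libraries. Setd8, the older symbol of Kmt5a, which monomethylates histone H4 lysine 20, had 0, 177.3 and 387.6 CPM in heterozygous libraries, against 0, 224.7 and 352.2 CPM in wild-type ones. The ARID proteins outside SWI/SNF held 934 counts in 7 members, most of them in Arid4a (409) and Arid4b (293), which are subunits of the Sin3 histone deacetylase complex. Arid4a had 0, 241.8 and 462.9 CPM in heterozygous libraries, against 0, 198.8 and 885.3 CPM in wild-type ones, and the genotypes overlapped. Arid4b had 0, 145.4 and 337.7 CPM in heterozygous libraries, against 0, 204.2 and 531.2 CPM in wild-type ones, also overlapping.

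**Figure D2:**
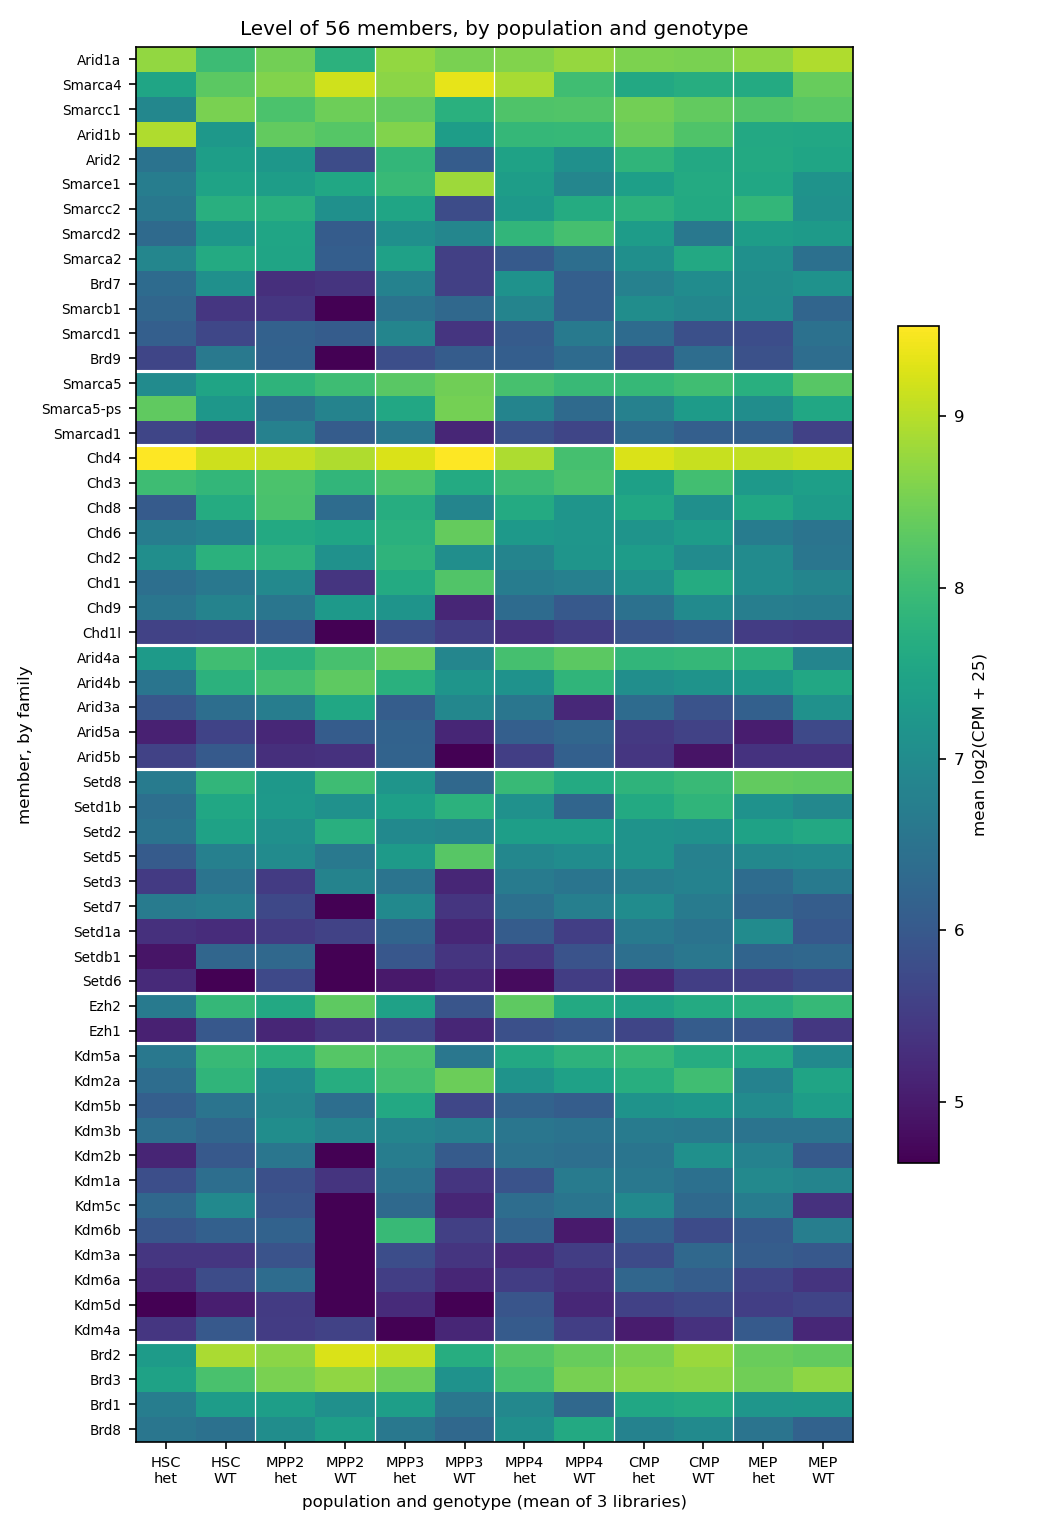
Mean of log2(CPM + 25) over 3 libraries (colour) for 56 of the 57 members tested (rows, grouped by family with white lines between families), in each population with heterozygous left of wild type (columns). Chd4, with 954 counts, is bright in every column, and darker cells in wild-type MPP2, wild-type MPP3 and heterozygous HSC fall in groups that hold the 6 libraries under 13000 counts.

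The comparison of CMP and MEP with HSC and the MPPs asks which members differ between lineage-directed progenitors and the stem and multipotent compartment. Setd1a, a methyltransferase of histone H3 lysine 4, was higher in CMP and MEP by the linear model (limma), and it was the only one of 57 members that this model called, while 517 of all genes tested, or 7.24%, were called higher. The edgeR count test called 4 other members of the 57, while 12% of all genes tested were called, 8.29% higher and 3.72% lower. Of these 4 members the H4 lysine 20 enzyme Setd8 was higher in CMP and MEP, whereas the SWI/SNF ATPase Smarca4, the remodeller Chd2 and the Sin3 subunit Arid4b were lower. These edgeR calls used library totals for scaling, and with every library kept and weighted equally no member was called by both tests.

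Setd1a lies on chromosome 7 (127776670 to 127800122, plus strand, mm10). In CMP it had 97.4, 78.5 and 56.6 CPM in heterozygous libraries and 53.9, 79.2 and 65.4 CPM in wild-type ones. In MEP it had 90.7, 133.1 and 91.2 CPM in heterozygous libraries and 17.6, 57.1 and 48.8 CPM in wild-type ones. It was found in 12 of 12 CMP and MEP libraries, at 17.6, 72.0 and 133.1 CPM (lowest, median and highest), against 14 of 24 HSC and MPP libraries, at 0, 25.7 and 162.1 CPM. The ranges overlap, but 11 of 12 CMP and MEP libraries lay above the HSC and MPP median, and the libraries at 0 all belonged to HSC and MPPs. Those at 0 include wild-type MPP2 1 and 3, wild-type MPP3 1 and 2 and heterozygous HSC 2, all under 13000 counts. CMP and MEP libraries were also deeper, with a median of 76080 counts against 32831.5. The part of depth in these zeros was not tested. The pooled level was 1.79 times that of HSC and MPPs (95% interval 1.17 to 2.77, from 67 and 35 counts, counting error only). The limma difference in log2(CPM + 25) was 0.96 (SE 0.305, adjusted p = 0.0370), and with edgeR the log2 difference was 0.86 (adjusted p = 0.120). With TMM scaling edgeR called Setd1a too (1.14, adjusted p = 0.0226). Without the 6 shallow libraries the limma difference was 0.72 (adjusted p = 0.117), and the call was also lost in 16 of 36 fits that leave out 1 library, where the difference stayed between 0.90 and 0.99. Those 16 fits left out a CMP or MEP library (11 fits), wild-type HSC 2, wild-type MPP4 1, heterozygous MPP2 2, heterozygous MPP3 1 or heterozygous MPP4 3. Gene models on both strands overlap the 3′ end of Setd1a, and the use of strand in counting is not given in the sources used here.

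Smarca4 lies on chromosome 9 (21616169 to 21704230, plus strand, mm10) and encodes BRG1, an ATPase that powers SWI/SNF. Its 12 CMP and MEP libraries had 132, 180.5 and 475.5 CPM (lowest, median and highest), against 0, 387.1 and 1447 CPM in the 24 HSC and MPP libraries. Only 1 of 12 CMP and MEP libraries lay above the HSC and MPP median. The heterozygous CMP libraries stood at 178.5, 157.1 and 169.7 CPM and the heterozygous MEP libraries at 181.5, 146.5 and 193.8 CPM. The heterozygous MPP2, MPP3 and MPP4 libraries ran from 321.3 to 527.6 CPM, with no overlap with the 6 heterozygous CMP and MEP libraries. Heterozygous HSC libraries stood at 906.1, 0 and 232.9 CPM, the 0 being in the library of 1577 counts. Wild-type libraries were less separated, with 132, 231.8 and 475.5 CPM in CMP and MEP, with MPP4 at 208.9, 288.4 and 221.7 CPM and HSC at 137.5, 199.5 and 817.8 CPM. Wild-type MPP2 stood at 484, 567.3 and 619.7 CPM, and wild-type MPP3 at 821.5 and 1447 CPM in its shallow libraries and 191.9 CPM in library 3. The pooled ratio was 0.479 (0.399 to 0.574, from 186 and 362 counts, counting error only). With edgeR the log2 difference was -1.05 (adjusted p = 0.000435), called in 36 of 36 fits that leave out 1 library, but -0.79 without the 6 shallow libraries (adjusted p = 0.0568). TMM and RLE scaling also called Smarca4 lower (-0.72 and -1.15, adjusted p = 0.0151 and 0.000164). The limma difference was -0.74 (SE 0.333, adjusted p = 0.146), and it was called with array quality weights (-0.87, adjusted p = 0.000914). Of the 36 limma fits that leave out 1 library, only that without heterozygous HSC 2, of 1577 counts, called Smarca4 (-0.92, adjusted p = 0.0133).

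The edgeR difference of Smarca4 was -1.36 in heterozygous cells alone (adjusted p = 0.00180) and -0.74 in wild-type cells alone (adjusted p = 0.172). The difference between those 2 values was itself not called (-0.62, adjusted p = 0.690 by edgeR).

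The promoters of these 2 genes are shown because limma called Setd1a higher in CMP and MEP and every edgeR scaling called Smarca4 lower. Each runs from 250 bases before to 50 bases after the gene's start in RefSeq (GRCm38.p6), and capitals mark matches of GGGCGG on either strand, the core letters bound by Sp1-type factors. The Setd1a window spans chr7:127777139-127777438 and the Smarca4 window chr9:21615919-21616218, both on the plus strand.
Setd1a: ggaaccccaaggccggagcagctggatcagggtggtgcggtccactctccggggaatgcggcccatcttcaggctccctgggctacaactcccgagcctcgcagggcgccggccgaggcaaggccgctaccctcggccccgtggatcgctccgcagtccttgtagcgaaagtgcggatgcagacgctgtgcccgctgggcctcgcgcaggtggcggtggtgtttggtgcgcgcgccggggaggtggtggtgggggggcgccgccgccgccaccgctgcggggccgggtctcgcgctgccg
Smarca4: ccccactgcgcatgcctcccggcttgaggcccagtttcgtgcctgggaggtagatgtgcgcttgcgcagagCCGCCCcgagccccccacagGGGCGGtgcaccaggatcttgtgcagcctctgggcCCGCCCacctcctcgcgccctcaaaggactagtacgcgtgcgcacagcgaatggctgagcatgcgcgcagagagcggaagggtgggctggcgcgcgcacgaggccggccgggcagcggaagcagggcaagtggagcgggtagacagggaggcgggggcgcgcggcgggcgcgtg
Setd1a holds 35 CpG pairs, is 73.7% G and C, and has none of 4 searched motifs. Smarca4 holds 33 CpG pairs, is 72.3% G and C, and has 3 matches of GGGCGG. Over the 54 members with a promoter in the RefSeq table, 68.5% held GGGCGG, against 67.0% of the 5788 matched promoters of genes tested and 35.9% of all 27025 promoters in the table. AGATAA, the letters of the motif of GATA factors, was in 13% of members, 6.08% of genes tested and 11.4% of all promoters. CCAAT was in 37.0%, 38.8% and 37.9% of these sets, and CCGGAAG, an ETS-type motif, in 16.7%, 22.0% and 9.12%. Both strands were searched, and the 4 motifs do not contain one another. The median number of CpG pairs was 24 in members, 22 in genes tested and 7 in all promoters.

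Chd2, a remodeller that deposits histone variant H3.3, had 29.3, 109.5 and 194.7 CPM in CMP and MEP, against 0, 159.7 and 424.1 CPM in HSC and MPPs. Only 2 of 12 CMP and MEP libraries lay above the other median. Its pooled ratio was 0.568 (0.435 to 0.738, counting error only). With TMM scaling edgeR gave -0.52 (adjusted p = 0.150), and with RLE scaling -0.91 (adjusted p = 0.0132). On library totals its edgeR log2 difference of -0.82 had an adjusted p of 0.0220. Limma gave -0.35 for Chd2 (adjusted p = 0.543). The edgeR call was lost in 5 of 36 fits that leave out 1 library (wild-type MPP2 3, MPP3 3, CMP 2 and MEP 3, and heterozygous HSC 1) but held without the shallow libraries (-0.94, adjusted p = 0.0238).

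Arid4b had 66.0, 131.1 and 228.6 CPM in CMP and MEP, against 0, 201.8 and 531.2 CPM in HSC and MPPs. Only 2 of the 12 libraries lay above the other median here too. With TMM scaling edgeR gave -0.41 (adjusted p = 0.211), and with RLE scaling -0.79 (adjusted p = 0.0138). On library totals the edgeR log2 difference was -0.71 (adjusted p = 0.0275) and the limma difference -0.32 (adjusted p = 0.582). Without the shallow libraries edgeR gave -0.64 (adjusted p = 0.121), and the call was lost in the same 5 fits as for Chd2 and on leaving out heterozygous MPP4 1 or MEP 1. Its paralogue Arid4a had a pooled ratio of 0.637 (0.520 to 0.780, counting error only) and an adjusted p of 0.081 by edgeR.

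Setd8 had 132, 285.2 and 387.6 CPM in CMP and MEP, against 0, 168.5 and 340.8 CPM in HSC and MPPs. In this gene 10 of 12 CMP and MEP libraries lay above the other median, and the highest library of all was a heterozygous MEP library. With TMM scaling edgeR called Setd8 (0.89, adjusted p = 0.00261), and with RLE scaling it did not (0.50, adjusted p = 0.119). On library totals its edgeR log2 difference was 0.59 (adjusted p = 0.0487), with 0.76 by limma (SE 0.315, adjusted p = 0.112). The edgeR call was lost in 26 of 36 fits that leave out 1 library and without the shallow libraries (0.62, adjusted p = 0.131).

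**Figure D3:**
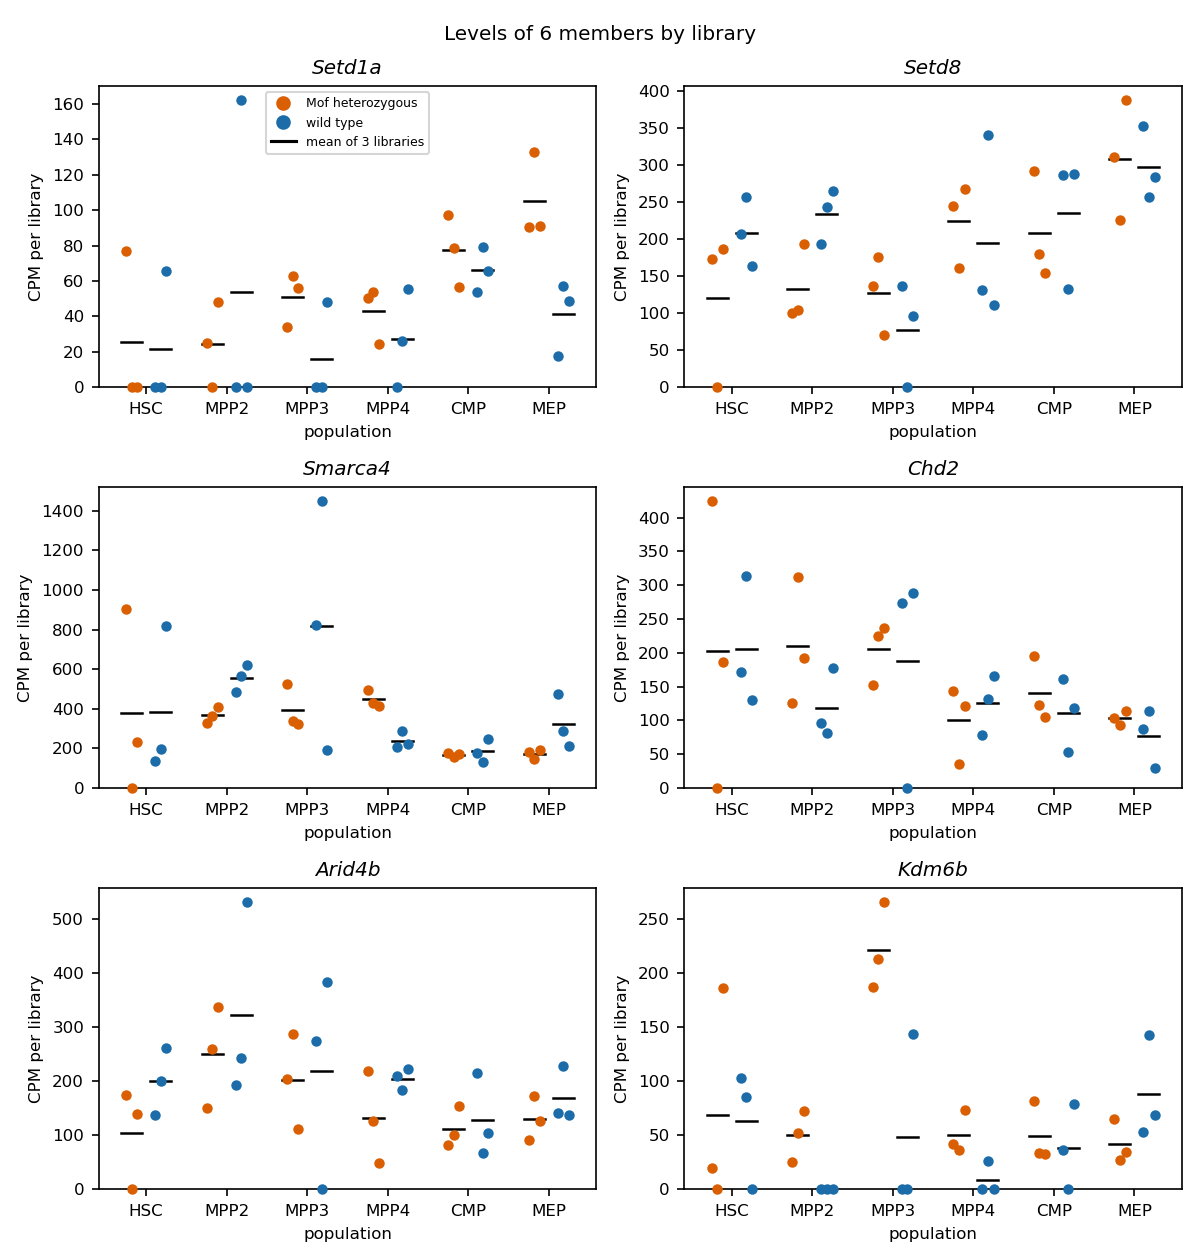
CPM in each of the 36 libraries (vertical axis, starting at 0 and scaled for each gene) for Setd1a, Setd8, Smarca4, Chd2, Arid4b and Kdm6b, by population (horizontal axis), with heterozygous libraries left of wild-type ones and a line at the mean of 3. The CMP and MEP points of Setd1a are all above 0, those of Smarca4 are mostly under 300 CPM, and heterozygous MPP3 stands highest for Kdm6b, at 187.2, 212.7 and 265.5 CPM. CMP and MEP libraries had a median of 76080 counts, against 32831.5 in HSC and MPP libraries.

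Limma called 639 genes in this comparison, or 8.95% of those tested, and 25.4% passed an unadjusted p under 0.05. Among members, 1 of 57 and 11 of 57 did so. With edgeR, 12% of genes were called, 8.29% higher and 3.72% lower in CMP and MEP, against 1 member higher and 3 lower. TMM scaling called 11 members, of which Smarca4 alone was lower, and RLE scaling called 3, namely Smarca4, Chd2 and Arid4b, all lower. The share of higher calls among members and among all genes therefore depends on the scaling, with 1500 genes higher and 179 lower by TMM and 440 higher and 318 lower by RLE, against 592 higher and 266 lower on library totals. The median edgeR log2 difference of all genes was 0.25 on library totals, 0.51 with TMM and 0.17 with RLE, and that of the 57 members on library totals was 0.01. On the limma scale the members' median was 0.22 (38 above 0 and 19 below) and that of all genes 0.28 (74.9% above 0).

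By family, the limma medians of this comparison were 0.42 for the 9 tested SETD genes (8 above 0), 0.35 for the 12 KDM genes (9 above 0), 0.23 for the 13 SWI/SNF genes (9 above 0) and 0.13 for the 8 CHD genes (5 above 0). All 5 tested ARID genes outside SWI/SNF lay below 0, with a median of -0.26. Members with an unadjusted p under 0.05 included the SWI/SNF core subunit Smarcb1 (0.86, adjusted p = 0.0873), the H3 lysine 9 enzyme Setdb1 (0.78, adjusted p = 0.0695) and the H3 lysine 4 demethylase Kdm1a (0.72, adjusted p = 0.144), which were chosen after their values were seen and did not pass the test. Brd7 (0.78, adjusted p = 0.138), Kdm5b (0.74, adjusted p = 0.147), Arid2 (0.71, adjusted p = 0.162), Kdm5d (0.51, adjusted p = 0.167) and Kdm3a (0.61, adjusted p = 0.168), named on the same basis, did not pass it either. Of these 8 members, Arid2, Brd7, Kdm1a, Kdm5b, Setdb1 and Smarcb1 were called higher both by edgeR with TMM scaling and by limma with array quality weights. The edgeR log2 difference of Chd4 was 0.01, with 409.3, 518.5 and 736 CPM in CMP and MEP, against 110.9, 571.4 and 911.8 CPM in HSC and MPPs.

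**Figure D4:**
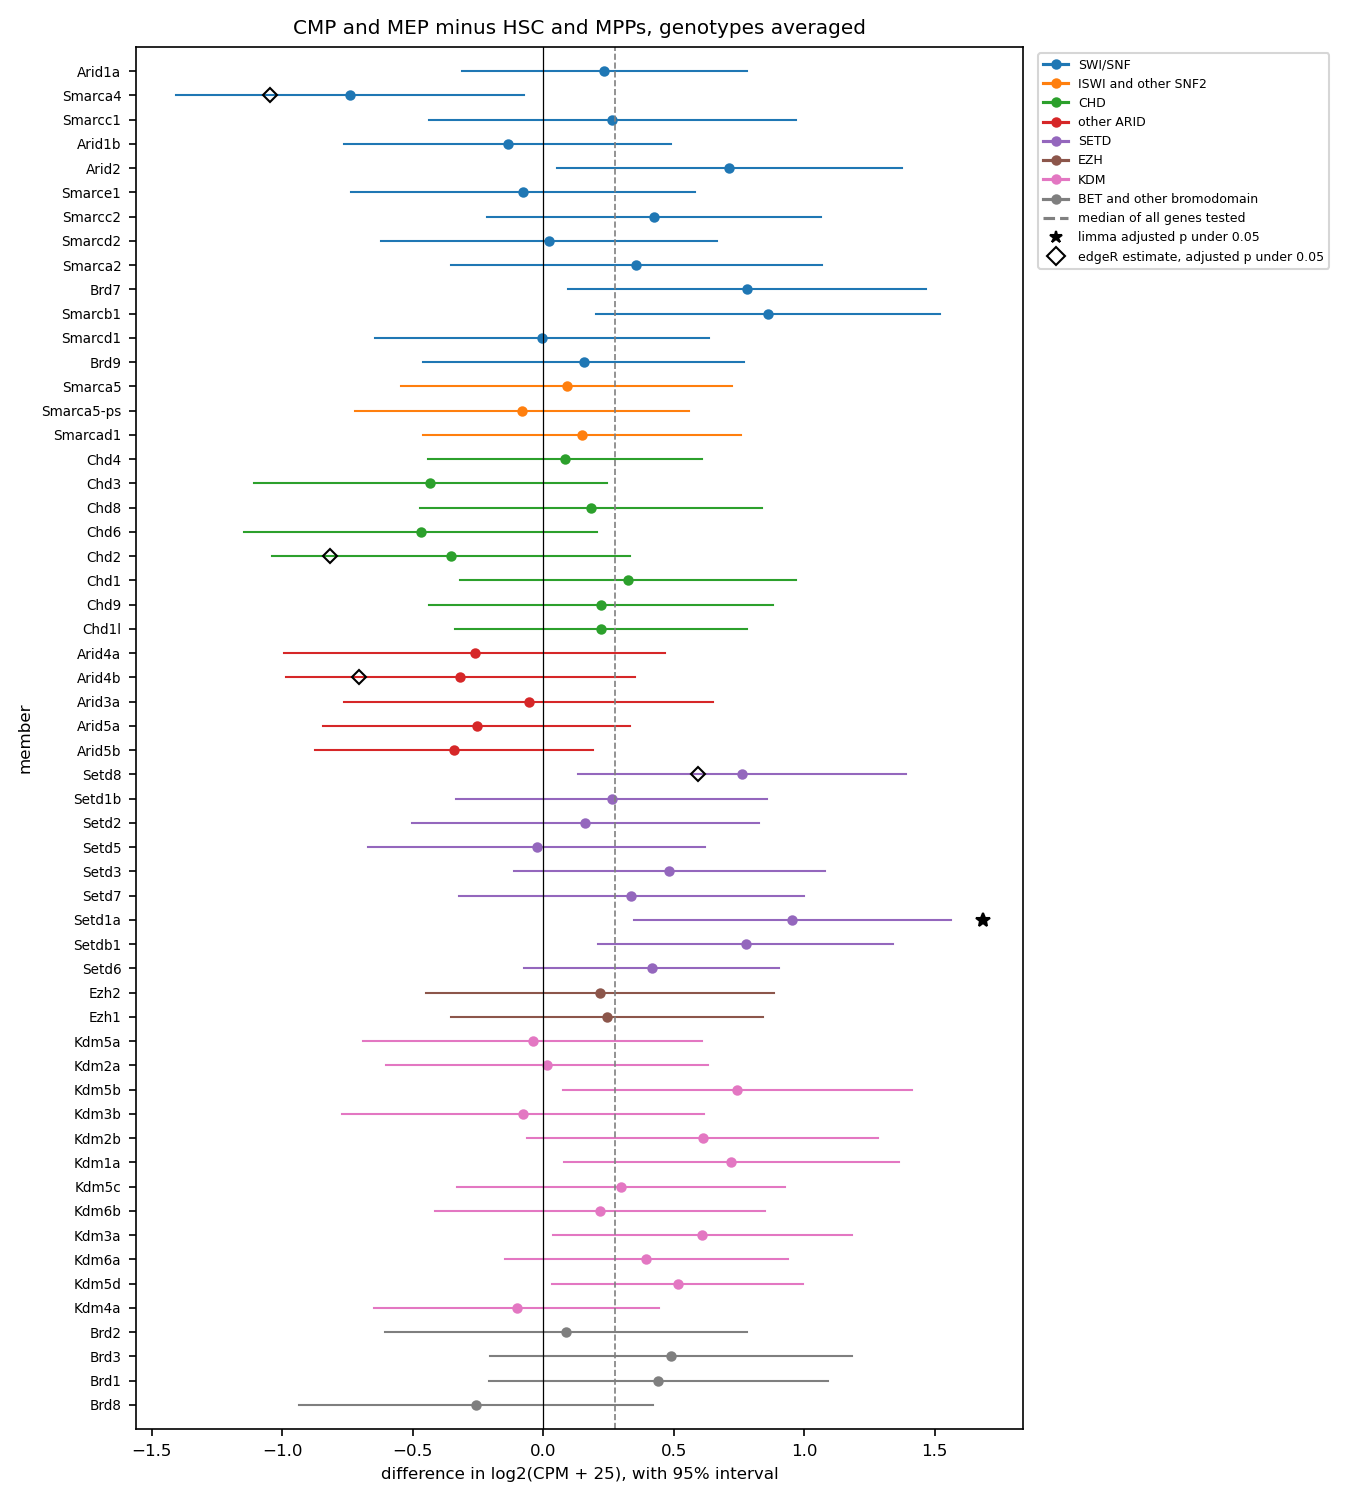
Difference in log2(CPM + 25) between CMP and MEP and the HSC and MPP groups (horizontal axis, limma estimate with its 95% interval), for 56 of the 57 members tested (rows, coloured by family). The dashed line is the median of all genes tested (0.28), the star marks Setd1a, called by limma, and open diamonds give the edgeR estimates of Smarca4, Chd2, Arid4b and Setd8.

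Summed markers of other cells, and of the cell cycle, were compared in the same way, and the ranges of all 5 lists overlapped. The summed level of 6 mature B cell markers, all 6 found in both compartments, was 0, 39.4 and 2943 CPM in CMP and MEP, against 0, 1019 and 5578 CPM in HSC and MPPs. The sum of 8 mature neutrophil markers, all 8 found, was 143, 303 and 31918 CPM in CMP and MEP, against 0, 157 and 32982 CPM in HSC and MPPs. The sum of 11 cell cycle genes, all 11 found, was 2342, 2748 and 3136 CPM in CMP and MEP, against 333, 2597 and 7839 CPM in HSC and MPPs. The sum of 5 T and NK cell markers, of which Gzmb was at 0 in both compartments, was 68.4, 163 and 227 CPM in CMP and MEP, against 0, 62.4 and 262 CPM in HSC and MPPs. Of 5 lymphoid priming genes, 4 are in the tables and all 4 were found, with a sum of 52.8, 154 and 359 CPM in CMP and MEP, against 0, 342 and 4309 CPM in HSC and MPPs. The part of these 5 lists in the member differences was not tested. The gates followed their own markers in part. Of 6 myeloid genes, all were found, with a median sum of 2600 CPM in CMP and MEP, against 159 CPM in HSC and MPPs. The sum of 8 megakaryocyte and erythroid genes had a median of 1665 CPM in CMP and MEP, with Hbb-b1 at 0, against 383 CPM in HSC and MPPs. The HSC marker sum had a median of 412 CPM in CMP and MEP, with Fgd5 at 0, against 503 CPM in HSC and MPPs. Within HSC alone its median was 1369 CPM in heterozygous and 1881 CPM in wild-type libraries (65.4 to 2407 CPM), with all 8 genes found. Medians of the other groups ran from 176 CPM in wild-type MEP to 1243 CPM in heterozygous MPP3.

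Across all 6 populations with genotypes averaged, limma's F test called 0 members (4.09% of genes), 5 members passed an unadjusted p under 0.05 (20.3% of genes), and edgeR called Smarca4 (adjusted p = 0.00598) and Chd2 (adjusted p = 0.0145), with 10.8% of genes called. The 5 members, named after their values were seen, were Smarcb1, Chd1, Brd7, Smarca5-ps and Setd7. In wild-type cells alone, limma called 0 members (3.11% of genes), 4 passed unadjusted (22.8%), namely Chd1, Kdm5c, Setd7 and Setdb1, and edgeR called 0 (4.03%). Among heterozygous groups alone, limma called 0 members (0.63%) and 0 passed unadjusted (8.34%), while edgeR called Kdm6b (adjusted p = 0.00755) and Smarca4 (adjusted p = 0.0203), with 5.53% of genes called.

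Kdm6b, a demethylase of histone H3 lysine 27 that opposes Polycomb, had its highest levels in heterozygous MPP3. Those 3 libraries stood at 187.2, 212.7 and 265.5 CPM, against 0, 0 and 144 CPM in wild-type MPP3. The wild-type MPP3 libraries at 0 hold 7304 and 2764 counts, where a single count is 136.9 and 361.8 CPM. The sum of the 8 mature neutrophil markers moved with genotype in MPP3, at 69.9, 1276 and 1401 CPM (lowest, median and highest) in heterozygous libraries, with Ltf and Mmp8 at 0, against 4703, 12957 and 19715 CPM in wild-type libraries, where all 8 were found. These sums did not overlap. Nor did the sums of 8 HSC markers, at 1140 to 1614 CPM in heterozygous and 0 to 816 CPM in wild-type MPP3. The sums of 5 T and NK cell markers, of which only Nkg7 was found, were 87.6 to 182 CPM and 0 to 48.0 CPM. Sums of the megakaryocyte and erythroid, myeloid, lymphoid priming, mature B and cell cycle lists overlapped. The part of these lists in the levels of Kdm6b was not tested. In the other heterozygous populations Kdm6b ran from 0 to 186.3 CPM, the highest of these being HSC library 3. The heterozygous MPP3 libraries were thus all above the other 15 heterozygous libraries, the nearest of which lay just below them. The edgeR calls of Kdm6b and Smarca4 in heterozygous cells held without the shallow libraries (adjusted p = 0.0116 and 0.0122). Among the 36 fits that leave out 1 library, the call of Kdm6b was lost in 2, without heterozygous MPP3 2 or MPP3 3, and that of Smarca4 in 4, without heterozygous HSC 1, CMP 2, CMP 3 or MEP 2.

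Between CMP and MEP, limma called 0 members (0.042% of genes), 0 passed unadjusted (1.76%) and edgeR called 0 (0.532%). For HSC against the MPPs, limma called 0 (0.28%), edgeR called 0 (0.588%), and Smarca5 and Smarca4 passed unadjusted (9.51% of genes), at -0.86 and -0.89 by limma, with edgeR at 0.21 for Smarca4. HSC and the MPPs lie in different submitted samples, which cannot be told apart from this comparison. In MPP4 against MPP2 and MPP3, limma called 0 (0.224%), edgeR called 0 (0.868%), and Smarcd2 and Kdm5c passed unadjusted (9.97% of genes), at 1.08 and 0.95. Those names were chosen after their values were seen. TMM and RLE scaling called 0 members in the first 2 of these comparisons. TMM scaling called Smarcd2 in the last, with 2.86% of genes called. Without the shallow libraries MPP2 drops out and wild-type MPP3 is a single library. Limma then gave -2.07 for Kdm6b in MPP4 against MPP3.

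The comparison of heterozygous with wild-type cells asks what follows from loss of 1 Mof allele. Averaged over the 6 populations, no member was called by limma (0.07% of genes called) or by edgeR (0.322%), nor with TMM or RLE scaling. An unadjusted p under 0.05 was reached by 3 of 57 members, against 11% of genes. These were Kdm6b, Kdm2a and Kdm5c, and the lowest adjusted p was 0.320, that of Kdm6b. Of the 57 members 33 lay above 0 and 24 below, with a median difference of 0.07 in log2(CPM + 25), and the median of all genes was 0.13.

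Kdm6b had 0, 47.1 and 265.5 CPM in heterozygous libraries, against 0, 13.1 and 144 CPM in wild-type libraries. It was found in 17 of 18 heterozygous and 9 of 18 wild-type libraries, with 89 and 33 counts and a pooled ratio of 1.59 (1.05 to 2.44). Of the libraries at 0, all 3 of wild-type MPP2, wild-type MPP3 1 and 2 and heterozygous HSC 2 held under 13000 counts. The limma difference was 0.77 (SE 0.299, adjusted p = 0.320). Without the 6 shallow libraries, where MPP2 drops out and wild-type MPP3 is a single library, it was 0.38. The part of depth in this difference was not tested. Kdm5c, an X-linked H3 lysine 4 demethylase, had 0, 66.6 and 134.9 CPM in heterozygous libraries, against 0, 35.6 and 221.7 CPM in wild-type ones, a difference of 0.60 (SE 0.297, adjusted p = 0.446). Kdm2a differed by -0.64 (SE 0.292, adjusted p = 0.411). All 3 genes overlapped between genotypes.

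For the most counted members the intervals show what size of difference these libraries leave possible. Chd4 differed by 0.19 (95% interval -0.31 to 0.69), Arid1a by 0.21 (-0.30 to 0.73) and Ezh2 by -0.02 (-0.65 to 0.61). Arid1b differed by 0.55 (-0.04 to 1.14). Smarca4 differed by -0.34 (-0.96 to 0.29), but by 0.16 with TMM scaling and 0.31 without the shallow libraries. The median SE of a member was 0.304 for the average over populations and 0.744 within 1 population.

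**Figure D5:**
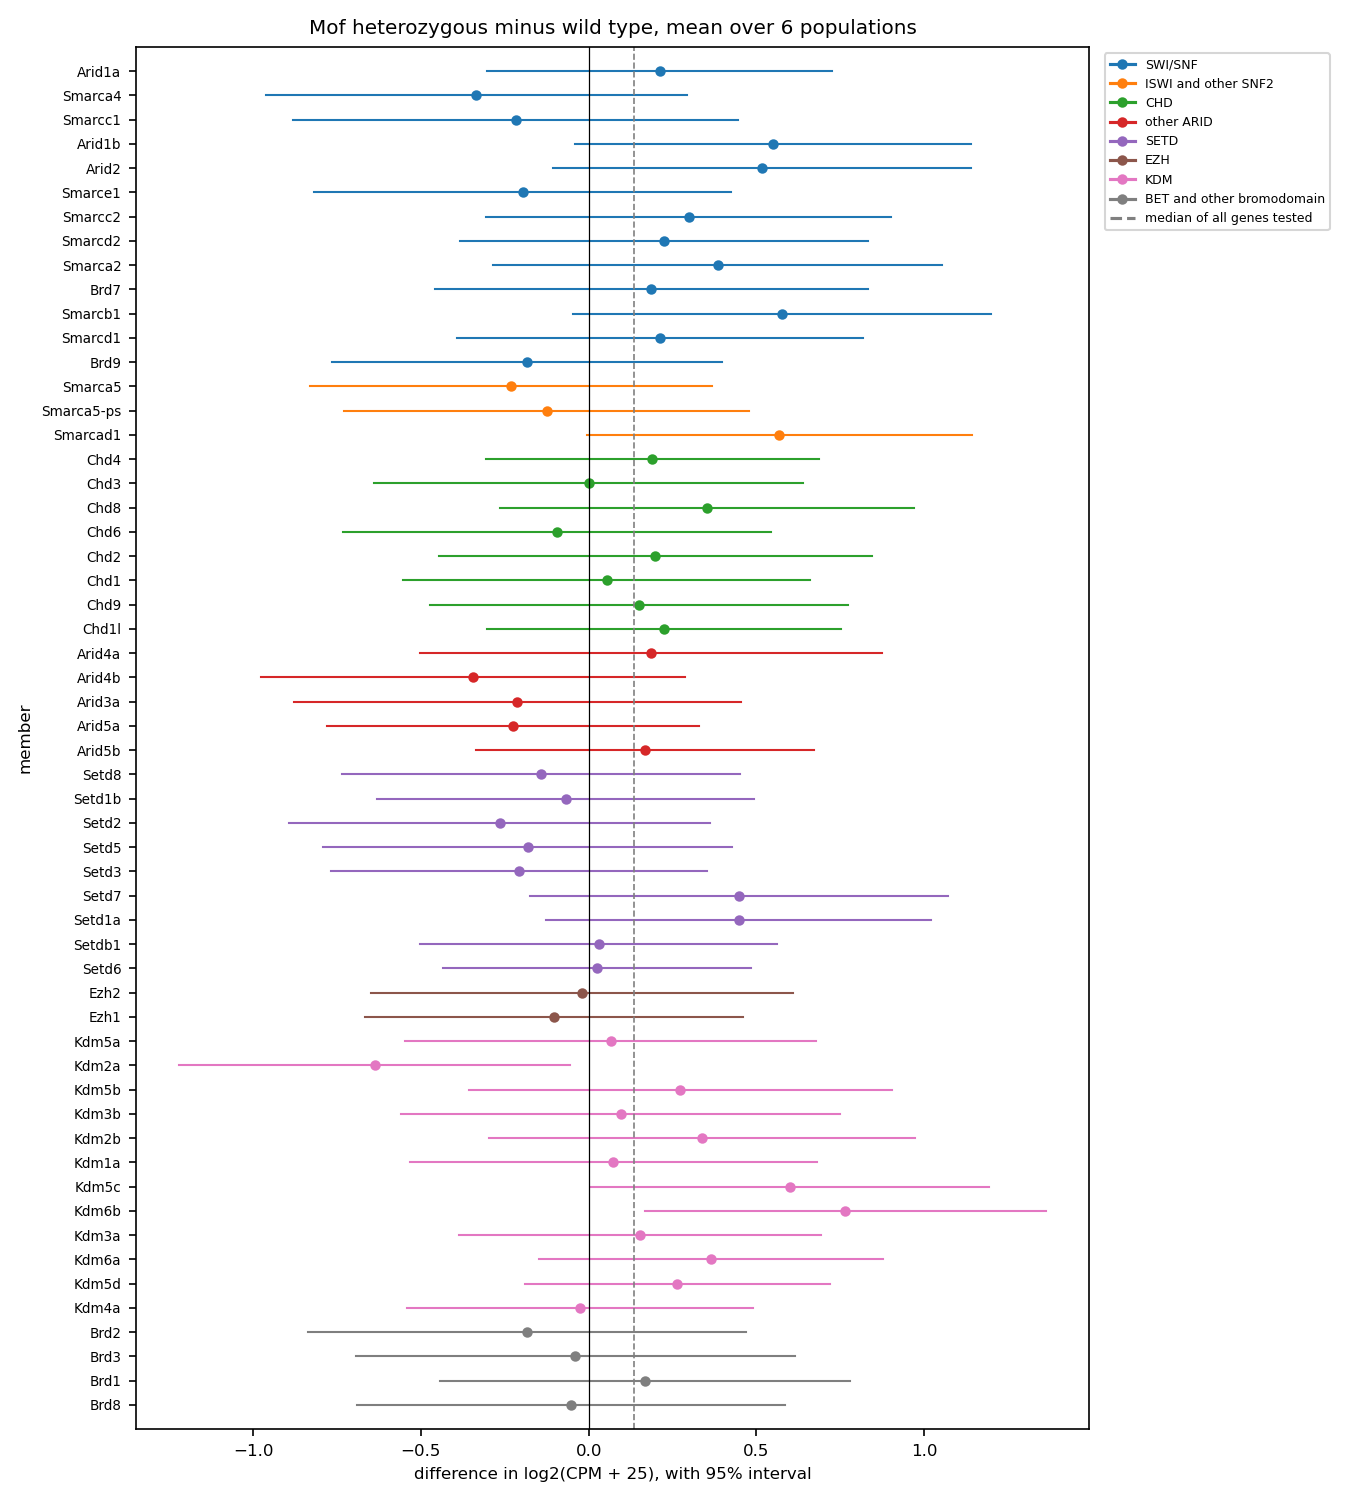
Difference in log2(CPM + 25) between heterozygous and wild-type cells, averaged over 6 populations (horizontal axis, limma estimate with its 95% interval), for 56 of the 57 members tested (rows, coloured by family). The dashed line is the median of all genes tested (0.13). Only the intervals of Kdm2a, Kdm5c and Kdm6b leave out 0, and none of the 3 passed adjustment.

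Within single populations the counts were as follows, all by the same tests. For HSC, limma called 0 members (0.014% of genes), 6 passed unadjusted (10.1%) and edgeR called 0 (0.014%). In MPP2 the values were 0 members by limma (0.308%), 8 unadjusted (14.9%) and 0 by edgeR (0.154%). In MPP3, 0 members were called by limma (0.574%), 10 passed unadjusted (20.6%) and 0 were called by edgeR (0% of genes). MPP4 gave 0 by limma (0%), 0 unadjusted (3.58%) and 0 by edgeR (0.084%), CMP gave 0 (0%), 0 (0.658%) and 0 (0.042%), and MEP gave 0 (0%), 0 (0.84%) and 0 (0.042%). The unadjusted passes fell in the 3 populations that hold the 6 shallow libraries, whose part in them was not tested. The interaction of genotype and population called 0 members by limma (0.014%) and 0 by edgeR (0.21%), and Kdm6b and Setdb1 passed unadjusted (9.39% of genes), with a lowest adjusted p of 0.497. TMM and RLE scaling called 0 members in each of these 7 comparisons.

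Kdm6b in MPP3 came nearest to a call, at 47 counts in heterozygous libraries and 3 in wild-type ones. The pooled ratio was 2.30, with a counting interval of 0.741 to 11.6, and the limma difference was 2.37 (SE 0.732, adjusted p = 0.0807), with an edgeR adjusted p of 0.766. It was called by limma on leaving out heterozygous HSC 2 (adjusted p = 0.0398) or wild-type MPP3 3 (difference 3.29, adjusted p = 0.00623), the only wild-type MPP3 library in which Kdm6b was found. Leaving out that same library, limma called 6 members, namely Chd9, Ezh2, Kdm5b, Kdm6b, Smarca2 and Smarcc2, with 579 of all genes, or 8.11%, called in that fit. The remaining 2 wild-type MPP3 libraries then hold 7304 and 2764 counts. Neutrophil marker sums did not overlap between genotypes in MPP3 (69.9 to 1401 CPM in heterozygous libraries, against 4703 to 19715 CPM in wild-type ones). The HSC and the T and NK marker sums given above did not overlap there either. The part of these lists in this difference was not tested.

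The partners of these enzymes that the rule does not name were taken from lists of PRC1, PRC2, COMPASS, NuRD, SWI/SNF and ISWI, INO80 and ATRX subunits and of other lysine methyltransferases, 85 genes in all, of which 71 were tested. Between genotypes, averaged over populations, limma and edgeR called 0 of the 71, with 0.07% and 0.322% of all genes called. An unadjusted p under 0.05 by limma was reached by 8 of the 71, against 11% of all genes. Between CMP and MEP and the HSC and MPP groups, limma called 2 of the 71, with 8.95% of all genes called, both as higher, the helicase Ruvbl2 (0.88, adjusted p = 0.0374) and the methyltransferase Smyd2 (1.24, adjusted p = 0.00605). The edgeR test called 6 of the 71, with 12% of all genes called, the same 2 as higher and 4 as lower, the SWI/SNF subunit Bcl7a (log2 difference -0.86, adjusted p = 0.0305), the nucleolar remodelling subunit Baz2a (-0.86, adjusted p = 0.0250) and the methyltransferases Ash1l (-0.78, adjusted p = 0.00790) and Whsc1 (-1.01, adjusted p = 0.00374). Smyd2 had 39.3, 110 and 156 CPM in CMP and MEP, against 0, 29.5 and 156 CPM in HSC and MPPs. Whsc1, which dimethylates H3 lysine 36, had 17.6, 92.8 and 197 CPM in CMP and MEP, against 0, 170 and 528 CPM in HSC and MPPs. Of the 37 tested PRC1, PRC2, COMPASS and NuRD partners, 0 were called in that comparison by either test. By limma 6 of the 37 passed unadjusted, against 25.4% of all genes.

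Genes listed under older symbols add the KMT2 methyltransferases and one demethylase, 7 rows of which 5 were tested, a list added after the files were seen. Mll1 (Kmt2a), an H3 lysine 4 methyltransferase rearranged in leukaemia, had 602 counts. It stood at 147, 250 and 429 CPM in CMP and MEP, against 0, 408 and 963 CPM in HSC and MPPs, with an edgeR log2 difference of -0.66 (adjusted p = 0.0128) and a limma difference of -0.47 (adjusted p = 0.350). Jhdm1d (Kdm7a), a demethylase of H3 lysines 9 and 27, was the only gene of this list called lower by both tests. It had 0, 35.7 and 171 CPM in CMP and MEP, against 0, 120 and 362 CPM in HSC and MPPs. Its limma difference was -1.12 (SE 0.351, adjusted p = 0.0334) and its edgeR log2 difference -1.52 (adjusted p = 0.00626).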

How the data were processed

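Each of the 36 libraries was made from 15 sorted cells by CEL-Seq2, per the labels and the series' design text, and the submitters' processing notes name BWA 0.6.2-r126 and the build mm10. How reads were counted, with which annotation, strand setting and collapse of molecular identifiers, is not given in the sources used here. Every deposited signal value is one of the authors' counts divided by 1 size factor per library. Dividing by the smallest step gave whole counts for 100% of 850404 values, within 0.01 of a count. The 92 spike-in rows were left out of totals and tests. Groups came from the labels. The wild-type MEP table lacks the 92 spike-in names, so that its later names stand out of step, and its names were restored from the row order of the other tables.

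The main test was limma 3.58.1 (R 4.3.3) with an intensity trend on log2(CPM + 25), for 7143 genes with at least 36 counts in all, with 1 coefficient for each of 12 groups. Because whole counts were recovered from signal values, edgeR 4.0.16 (quasi-likelihood) was run beside it. Its scaling by library totals, used for the edgeR values in the text, was chosen after seeing the data, beside TMM and RLE. P-values were adjusted by Benjamini-Hochberg over all genes tested, two-sided, at 0.05. Both tests were tried on simulated data with known changes. Ratios of pooled counts have exact 95% intervals (scipy 1.17.1), which leave out the scatter of libraries. Coordinates come from GENCODE vM21, and promoters from RefSeq GRCm38.p6, which matched 54 of 71 members.

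Members described with per-library values were the 20 with most counts and any called by limma, apart from 1 that is not reported here. Members called by edgeR alone are given with their values too, and Kdm5c was chosen after its values were seen. The members and lists were chosen with earlier results of these data known.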

Additional observations from a re-analysis of the deposited data

How the results depend on the processing

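The number of members called between CMP and MEP and the HSC and MPP groups, 1 by limma, was 2 with a pseudocount of 5 CPM, 0 with 100 CPM, 0 without a filter, 0 with a filter of 180 counts, 10 with array quality weights, 11 with edgeR and TMM, 3 with RLE, 4 with library totals, 0 without the 6 shallow libraries, and 0 in either genotype alone. Of all genes, limma called 639 (8.95%), and these settings called 9.74%, 7.87%, 3.22%, 15.6%, 19.6%, 23.5%, 10.6%, 12%, 8.18%, 0.476% (heterozygous) and 3.95% (wild type), in the same order. By edgeR on library totals the 4 members became 1 without the shallow libraries, 1 in heterozygous and 0 in wild-type groups alone, with 12%, 5.38%, 4.03% and 4.82% of all genes. The F test over populations called 0 members by limma (4.09% of genes). It called 3 with weights (15%), 1 with TMM (15%), 3 with RLE (10.7%) and 2 with library totals (10.8%). In heterozygous groups that test gave 2 (7.69%), 1 (5.78%), 2 (5.28%) and 2 (5.53%), in the same order. Wild-type groups gave 0 in each of these settings. MPP4 against MPP2 and MPP3 gave 1 with TMM (2.86%). Without the shallow libraries wild-type MPP3 is a single library assumed to vary like the other groups, so calls of these tests are not counted there. The limma difference of Chd8 between heterozygous and wild-type MPP3 was then 3.05. MPP2 could not be compared between genotypes without those libraries and then drops out of the averages. The deposited scale was tried for the 8 comparisons that involve genotype and changed no member call.

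Leaving out 1 library at a time gave 0 to 2 members called for CMP and MEP, 0 to 6 for MPP3 between genotypes, 0 to 2 for the F test in wild-type and 0 to 1 with genotypes averaged. With every library kept, 8.95%, 0.574%, 3.11% and 4.09% of all genes were called in these comparisons. The fit with 6 members called 8.11% of all genes. With edgeR on library totals the ranges were 1 to 6, 1 to 2 in heterozygous groups and 1 to 3 with genotypes averaged. With every library kept, that test called 12%, 5.53% and 10.8% of all genes. Differences between genotypes that changed sign in such fits, none called, ran from -0.44 to 0.0393 for Brd2, -0.25 to 0.20 for Brd3, -0.25 to 0.16 for Chd3, -0.17 to 0.19 for Ezh2, -0.10 to 0.23 for Kdm5a and -0.28 to 0.0262 for Setd8.

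Other sign changes, none of them a call, arose between genotypes with TMM scaling for Brd2 (0.0062), Brd3 (0.16), Smarca4 (0.16), Smarcc1 (0.0608), Smarca5 (0.14), Setd8 (0.11), Ezh2 (0.13) and Smarce1 (0.0693). Without the shallow libraries they arose for Smarca4 (0.31), Smarca5 (0.0807), Setd8 (0.0591), Smarce1 (0.0374) and Smarcc2 (-0.0246), with array weights for Brd3 (0.16), Chd3 (0.000153) and Ezh2 (0.12), and with a pseudocount of 5 CPM for Chd3 (0.11) and Ezh2 (0.0768). Between CMP and MEP and the HSC and MPP groups, Arid1a was -0.0070 in heterozygous groups alone and Kdm2b -0.0294 without the shallow libraries. The cause was not tested. No paired analysis was possible because the labels give no animal or batch number that links libraries across groups. The median SE of a member between genotypes was 0.744 within 1 population (3 against 3 libraries) and 0.304 for the average (18 against 18).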
